A study of Mus musculus with 20 samples.

Results

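The genes described here encode the respiratory chain and ATP synthase, the protein complexes of the inner mitochondrial membrane. Nuclear members were chosen by symbol: Nduf genes of the a, b, c, s and v series for complex I, Sdha to Sdhd for complex II, Uqcr genes for complex III, Cox4 to Cox8 genes for complex IV, and Atp5 genes for ATP synthase, here called complex V. To these were added the 13 protein-coding genes of mitochondrial DNA. This gave 92 genes in all. Atp5s and Atp5sl, which RefSeq lists as Dmac2l and Dmac2, were counted with complex V by symbol only. The table of the Cre line held 78 nuclear and 13 mitochondrial members among 16140 listed genes, and the table of the GFP line held 79 nuclear members among 16536, with Atp5sl as the extra one. The mitochondrial genes were not analysed in the GFP table.

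Mouse brain monocytes and microglia were profiled by RNA sequencing 3 days after permanent photothrombosis, in which light makes a dye clot cortical vessels to cause a stroke. In the Cre table, KO mice are Cxcr4CreER conditional knockouts of the chemokine receptor Cxcr4, and control mice are Cxcr4CreER controls, so both carry the Cre recombinase that tamoxifen switches on. Monocytes of both genotypes are labelled TdT-positive and microglia TdT-negative, with 3 libraries in each of the 4 groups, each from 1 mouse. Population therefore coincides with TdT signal and with the cells in which the Cxcr4 driver acted. In the GFP table, 4 libraries of GFP-positive monocytes and 4 of GFP-negative microglia came from Cxcr4-GFP reporter mice, as pairs from a pool of 5 mice, a pool of 2 mice and 2 single mice. The labels give neither age nor sex, and titles of the GFP and KO mice carry the tag BrKo, which they do not explain.

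Electrons enter the chain at complex I from NADH and at complex II from succinate, pass through coenzyme Q to complex III and through cytochrome c to complex IV, where oxygen is reduced. Complexes I, III and IV pump protons, and ATP synthase uses the gradient to make ATP. All subunits of complex II come from nuclear genes, whereas the other 4 complexes mix nuclear subunits with subunits made inside the mitochondrion. There 1 polymerase transcribes both DNA strands into long precursors that are then cut into mRNAs. Brain microglia are resident macrophages, while monocytes enter from blood.

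Sequences at the ends of genes are given for both gene sets. A stretch of 100 bases upstream of the start is shown for 4 of the 8 nuclear members that were called higher in KO monocytes below, all 8 of which matched a RefSeq promoter. These 4 held, on either strand, the NRF1 core GCATGCGC or the ETS core CCGGAAG, motifs of factors known to drive nuclear respiratory genes, and capitals mark the motif. Positions are those of RefSeq on GRCm38.p6.
Atp5k, chr5:108434400-108434499, minus strand: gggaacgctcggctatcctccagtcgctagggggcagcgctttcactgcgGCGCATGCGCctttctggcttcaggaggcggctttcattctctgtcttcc
Ndufa8, chr2:36049339-36049438, minus strand: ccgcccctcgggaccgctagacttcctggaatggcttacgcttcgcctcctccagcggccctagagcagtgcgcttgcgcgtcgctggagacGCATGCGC
Cox6b1, chr7:30626115-30626214, minus strand: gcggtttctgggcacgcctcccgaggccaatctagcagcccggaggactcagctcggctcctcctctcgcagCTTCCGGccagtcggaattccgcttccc
Ndufb7, chr8:83566658-83566757, plus strand: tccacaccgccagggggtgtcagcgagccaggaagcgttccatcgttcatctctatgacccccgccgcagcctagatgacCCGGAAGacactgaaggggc

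In Atp5k the NRF1 core matched both strands at overlapping places. Over windows of 250 bases before to 50 after the start, 67 of the 79 nuclear members had a promoter in the RefSeq table. The NRF1 core was in 10 of them (14.9%, against 3.93% of 17491 protein-coding genes), the ETS core in 16 (23.9%, against 12.9%) and the YY1 motif AAGATGGCG in 8 (11.9%, against 2.14%). The CCAAT box, as CCAAT, was in 30 (44.8%, against 42.3%). Of the 8 called genes, the 4 shown held NRF1, ETS or YY1 letters, as did 28 of the 67 (41.8%, against 17.6% of the 17491). A match describes the letters only.

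The GENCODE M21 transcripts of the mitochondrial genes end at the stop codon, so any bases of the mRNAs beyond it are not shown. The last 30 bases of 4 of these transcripts are given, with the stop codon in capitals. In CYTB, ND4 and COX3 a single T was left after the last whole codon; such stops are known to be completed by the poly(A) tail.
CYTB, chromosome MT: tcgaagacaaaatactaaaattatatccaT
ND4, chromosome MT: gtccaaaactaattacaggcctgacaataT
COX3, chromosome MT: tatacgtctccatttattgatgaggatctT
COX1, chromosome MT: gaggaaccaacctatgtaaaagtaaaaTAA

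Depth was 9732177 to 56803993 reads in Cre libraries, with 10350 to 13316 detected genes. GFP libraries held 617302 to 14927208 reads, and GFP monocytes 3, GFP microglia 3 and GFP microglia 4 had 3029, 5598 and 3489 detected genes, against 10422 or more in the others. Cxcr4 itself stood at 784, 1010 and 536 normalized counts in KO monocytes and 1183, 1332 and 1166 in control monocytes, and at 0 to 7.88 in Cre microglia. The summed level of 10 microglial markers was 195570 to 311110 in Cre microglia and 21234 to 35941 in Cre monocytes, and that of 10 monocyte markers was 280130 to 383960 in Cre monocytes and 15613 to 24457 in Cre microglia. Lists of other cells also moved with population. The 10 neutrophil markers summed to 18363 to 75167 in Cre monocytes and 908 to 4030 in Cre microglia, where Mmp8, Mmp9, Ltf and Ngp were at 0 in all 6. The 5 astrocyte markers summed to 154 to 625 in Cre monocytes and 1467 to 2683 in Cre microglia, with Aqp4 at 0 in all KO libraries, and the 3 found B-cell markers to 2.00 to 364 in Cre monocytes and 415 to 1017 in Cre microglia. Sums for oligodendrocytes (923 to 2409 in monocytes, 1498 to 2156 in microglia), neurons and endothelial cells overlapped between populations. The part of these cells in the results below was not tested.

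Mitochondrial mRNAs took a smaller share of the reads in monocytes than in microglia of either genotype. They made up 2.70%, 4.86% and 4.27% of reads in KO monocytes, against 11.4%, 12.1% and 13.5% in KO microglia. In control mice they made up 3.76%, 4.10% and 3.72% of reads in monocytes, against 11.8%, 9.22% and 19.0% in microglia. Every monocyte library lay below every microglial library, while KO and control libraries of the same population overlapped.

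The nuclear members took a much narrower range, 1.09% to 1.496% of reads over all 12 libraries. Their summed share was 1.445%, 1.496% and 1.454% in KO monocytes, against 1.09%, 1.14% and 1.14% in KO microglia, and these did not overlap. It was 1.31%, 1.16% and 1.39% in control monocytes, against 1.12%, 1.42% and 1.44% in control microglia, and these overlapped. In bulk samples fewer cells of a type and less RNA per cell cannot be told apart.

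Dividing the mitochondrial by the nuclear reads removes the library's scale. This ratio was 1.87, 3.25 and 2.94 in KO monocytes, against 10.46, 10.65 and 11.9 in KO microglia. In control mice it was 2.88, 3.52 and 2.67 in monocytes, against 10.6, 6.47 and 13.1 in microglia. Of the mice, 4 gave libraries of both populations, and the ratio was lower in monocytes in 4 of 4, with the microglial ratio 5.71 and 4.04 times the monocyte ratio in the 2 KO mice and 4.92 and 3.68 times in the 2 control mice. Split by complex, the ratio in the 6 monocyte libraries was 0.609 to 1.62 for complex I, 6.26 to 14.2 for complex III, 3.36 to 4.05 for complex IV and 1.41 to 3.03 for complex V. In the 6 microglial libraries it was 2.10 to 5.25, 28.3 to 53.8, 5.998 to 11.2 and 6.19 to 13.2 for complexes I, III, IV and V, so that no complex overlapped between populations.

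**Figure D1:**
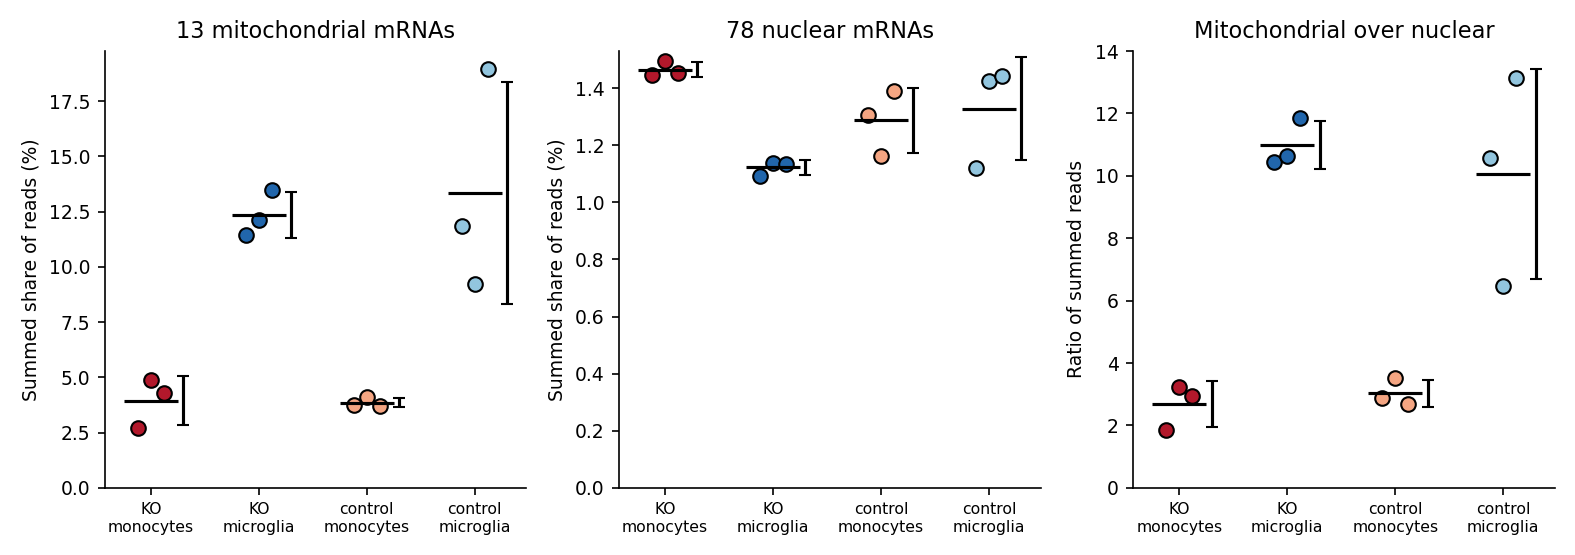
Summed share of reads of the 13 mitochondrial mRNAs and of the 78 nuclear mRNAs (percent), and the ratio of the summed reads, in the 12 Cre libraries. Points are libraries, lines are means and bars are SD (n = 3 per group). Mitochondrial shares reach at most 4.86% in monocytes and at least 9.22% in microglia, while nuclear shares stay between 1.09% and 1.496%.

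Gene by gene, all 13 mitochondrial mRNAs had negative log2 folds (monocytes over microglia) in both genotypes. In KO mice 7 of 13 were called lower in monocytes (limma on log2 of the normalized count plus 1, p adjusted by Benjamini-Hochberg over every gene tested, threshold 0.05), where 2.98% of the 12432 tested genes were called lower. Their median log2 fold was -1.41, against -0.25 for all tested genes, and 13 of 13 were below in every library, as were 14.8% of tested genes. In control mice 8 of 13 were called lower, where 3.06% of tested genes were. Their median was -1.54, against -0.24 for all tested genes, and 12 of 13 were below in every library, as were 12.5% of tested genes. The 7 genes called in KO mice were all among the 8 called in control mice; ATP8 was the other one.

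CYTB, the cytochrome b of complex III and its only mitochondrial subunit, had the lowest fold of the 13 mRNAs in both genotypes. With k standing for 1000 normalized counts, it had 178, 371 and 300.2 k in KO monocytes, against 845, 985 and 1107 k in KO microglia, a log2 fold of -1.85 (SE 0.33, limma adjusted p 0.00591). In control mice it had 252, 360.1 and 235 k in monocytes, against 1087, 683 and 1809 k in microglia, a log2 fold of -1.99 (SE 0.33, limma adjusted p 0.00399). The highest monocyte library thus lay well under the lowest microglial library. CYTB kept its call in 14 of 14 alternative settings in each genotype, including each library left out in turn.

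Complex I has 7 mitochondrial subunits, which form the proton-pumping membrane arm. ND4 had 26.0, 48.7 and 37.7 k in KO monocytes, against 81.0, 98.7 and 120.2 k in KO microglia, a log2 fold of -1.44 (SE 0.32, limma adjusted p 0.0184). In control mice ND4 had 35.5, 43.8 and 29.8 k in monocytes, against 121.8, 63.1 and 154 k in microglia, a log2 fold of -1.56 (SE 0.32, limma adjusted p 0.0122). Neither genotype's libraries overlapped. ND4L, whose reading frame overlaps that of ND4, averaged 2.80 ± 0.91 k in KO monocytes and 8.87 ± 1.91 k in KO microglia, and 3.40 ± 0.79 k in control monocytes and 10.6 ± 4.18 k in control microglia (SD, n = 3 each). Its log2 fold was -1.70 (SE 0.37) in KO mice and -1.57 (SE 0.37) in control mice. The sources used here give neither strand nor the treatment of overlaps, so values of ND4L and ND4, of ATP8 and ATP6, and of ND6 and its opposite-strand neighbour ND5 are uncertain against each other.

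ND1 averaged 46.0 ± 17.6 k in KO monocytes and 143 ± 35.4 k in KO microglia, and 49.8 ± 21.7 k in control monocytes and 160.4 ± 76.1 k in control microglia. ND2 averaged 11.03 ± 5.31 k in KO monocytes and 28.7 ± 4.41 k in KO microglia, and 9.99 ± 1.31 k in control monocytes and 31.2 ± 13.4 k in control microglia. Both were called in both genotypes, with log2 folds of -1.68 and -1.64 for ND1 and -1.52 and -1.54 for ND2 in KO and control mice. With the animal as a block, ND2 was not called in KO mice (limma adjusted p 0.0591), and neither ND1 (0.0502) nor ND2 (0.0571) in control mice.

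ND3, ND5 and ND6 were not called in either genotype by limma on the values as deposited, while DESeq2 called ND3 and ND6 lower in both and ND5 in control mice. By limma all 3 were called lower in both genotypes after scaling each library to the same total, as were COX1, COX2 and, in KO mice, ATP8. ND3, the member with the lowest level per length of the mitochondrial genes (4.38 k per kb over all libraries), had a log2 fold of -1.76 (SE 0.50, limma adjusted p 0.06) in KO mice and -1.74 (SE 0.50, limma adjusted p 0.0638) in control mice. ND5 had log2 folds of -1.05 and -0.98, and ND6, the only mRNA of this set copied from the other strand, had -1.27 and -1.21 in KO and control mice. CYTB stood at the other end of the levels with 598 k per kb, followed by ATP6 with 386 k and ATP8 with 192 k per kb.

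The 3 mitochondrial subunits of complex IV carry its catalytic centre. COX1 had 141, 171 and 167 k in KO monocytes, against 226, 261 and 276 k in KO microglia, a log2 fold of -0.67. In control mice it had 175, 152 and 134 k in monocytes, against 227, 161 and 403 k in microglia, a log2 fold of -0.68 (SE 0.26, limma adjusted p 0.16). COX1 was the 1 mitochondrial mRNA whose control libraries overlapped, since control monocytes 1 stood above control microglia 2. COX2 had log2 folds of -0.78 in KO mice and -1.005 in control mice and was not called, whereas COX3 was called in both genotypes, with log2 folds of -1.18 (SE 0.30, limma adjusted p 0.0384) in KO mice and -1.27 (SE 0.30, limma adjusted p 0.0283) in control mice.

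ATP6 and ATP8 form part of the membrane portion of ATP synthase. ATP6 averaged 142 ± 50.6 k in KO monocytes and 358 ± 36.7 k in KO microglia, and 133 ± 11.7 k in control monocytes and 418 ± 258 k in control microglia. It was called in both, with log2 folds of -1.41 and -1.48. ATP8 was called in control mice only (log2 fold -1.74, limma adjusted p 0.0292, against -1.40 and 0.0739 in KO mice), and the test of the difference between genotypes did not call it.

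**Figure D2:**
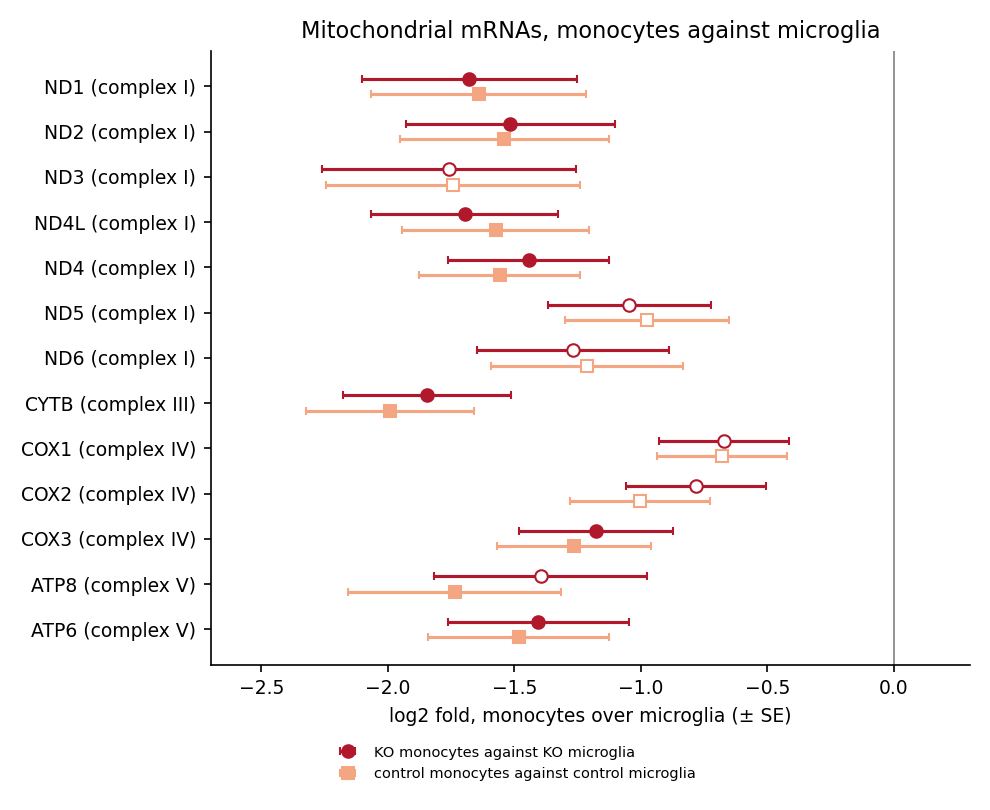
Log2 fold of the normalized count plus 1 (monocytes over microglia, with SE from limma, n = 3 per group) of the 13 mitochondrial mRNAs in KO and in control mice. Filled symbols mark adjusted p under 0.05; folds run from -1.99 for CYTB in control mice to -0.67 for COX1 in KO mice, and all lie below 0.

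How many were called changed as 1 library at a time was left out, and so did the share of all tested genes called. In KO mice 15 members were called in either direction with all libraries, where 3.85% of tested genes were called higher and 2.98% lower. There were 7 without KO microglia 1, and 4 each without KO microglia 2, KO microglia 3, KO monocytes 1 or KO monocytes 3. Without KO monocytes 2 there were 14, of which 3 were higher and 11 lower. In these KO fits 3.93% to 5.02% of tested genes were called. In control mice 8 were called with all libraries, where 3.46% of tested genes were called higher and 3.06% lower. There were 4 without control microglia 1, 5 without control monocytes 2 and 11 without control microglia 2. There were 2 each without control microglia 3, control monocytes 1 or control monocytes 3. In these control fits 4.7% to 5.67% of tested genes were called.

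The makeup of the mitochondrial mRNA pool differed as well. CYTB made up 32.1%, 35.9% and 34.4% of the mitochondrial mRNA reads in KO monocytes, against 45.7%, 44.6% and 45.7% in KO microglia. It made up 32.4%, 38.5% and 34.1% in control monocytes, against 48.1%, 47.1% and 46.9% in control microglia. COX1 went the other way, with 25.4%, 16.5% and 19.2% in KO monocytes, against 12.2%, 11.8% and 11.4% in KO microglia, and with 22.5%, 16.2% and 19.5% in control monocytes, against 10.04%, 11.1% and 10.45% in control microglia.

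The ratio of COX1 to CYTB reads was 0.792, 0.461 and 0.558 in KO monocytes, against 0.268, 0.265 and 0.249 in KO microglia. It was 0.695, 0.422 and 0.571 in control monocytes, against 0.209, 0.235 and 0.223 in control microglia. All 6 monocyte libraries lay above all 6 microglial libraries, and within the 4 mice with both populations the monocyte ratio was the higher in 4 of 4. The shares of the other 11 mRNAs overlapped between populations with the genotypes pooled. ATP6, for example, made up 15.2% to 18.4% in monocytes and 13.5% to 18.5% in microglia. ND5 overlapped barely (at least 1.99% in monocytes, at most 1.9913% in microglia), and was higher in monocytes without overlap within each genotype. In KO mice alone, COX2 (at least 4.414%, against at most 3.202%) and COX3 (6.28% against 5.505%) were also higher without overlap. ND4L was lower there (at most 0.3584%, against at least 0.3848%). In control mice these last mRNAs overlapped.

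**Figure D3:**
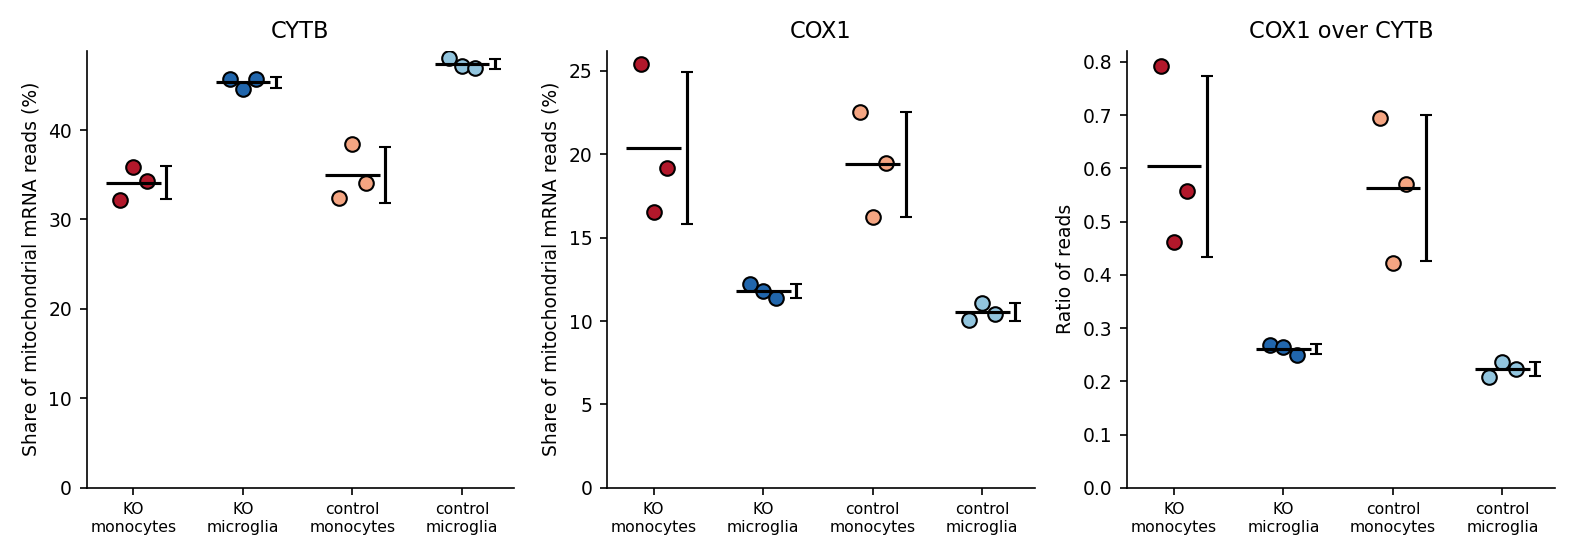
Share of CYTB and of COX1 in the mitochondrial mRNA reads (percent) and the ratio of COX1 to CYTB reads in the 12 Cre libraries. Points are libraries, lines are means and bars are SD (n = 3 per group). CYTB takes 32.1% to 38.5% in monocytes and 44.6% to 48.1% in microglia.

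The nuclear members did not follow the mitochondrial ones. In KO mice 8 of 78 were called higher in monocytes, where 3.85% of the tested genes were called higher, and none was called lower. Of the 78, 65 had positive log2 folds, the median was 0.64 against -0.25 for all tested genes, and 43 were above in every library, as were 12.7% of tested genes. The call depended on the scaling. After scaling to the same total, 3 nuclear members were called higher and 13 members, all mitochondrial, lower. There 3.01% of tested genes were called higher and 3.7% lower. With the mitochondrial mRNAs left out of that total, 1 was called higher, Ndufa3, and the same 13 lower. There 2.71% of tested genes were called higher and 4.19% lower. The median of the 78 was then 0.26, against -0.61 for all tested genes.

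Complex I supplied 4 of the 8, all accessory subunits that surround the catalytic core. Ndufa3 had 3442, 4357 and 3565 normalized counts in KO monocytes, against 1221, 1198 and 1456 in KO microglia, a log2 fold of 1.55 (SE 0.25, limma adjusted p 0.00297). Ndufb8 had 11293, 10163 and 9891 in KO monocytes, against 4522, 4341 and 5474 in KO microglia, a log2 fold of 1.13 (SE 0.21, limma adjusted p 0.00754). In both genes the lowest monocyte library exceeded the highest microglial one. Ndufa8 averaged 6696 ± 1628 in KO monocytes and 2540 ± 886 in KO microglia (log2 fold 1.44), and Ndufb7 averaged 4939 ± 481 and 1860 ± 307 in the same order of groups (log2 fold 1.42).

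The 29 Nduf genes counted by symbol as accessory subunits, Ndufa4 among them, had a median log2 fold of 0.72 in KO mice, with 27 of 29 positive. The 7 nuclear core subunits, which bind NADH and carry the iron-sulfur clusters, had a median of 0.27, with 4 of 7 positive and none called by limma. This split was drawn after the values were seen.

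In complex IV, Cox6b1 had 8178, 9757 and 6922 normalized counts in KO monocytes, against 4049.5, 4208 and 4460.4 in KO microglia, a log2 fold of 0.95 (SE 0.21, limma adjusted p 0.0193). Cox5a averaged 3453 ± 714 in KO monocytes and 1589 ± 468 in KO microglia (log2 fold 1.14, limma adjusted p 0.047). Both are subunits around the catalytic core, and neither overlapped between groups. In complex V, Atp5o, the stalk subunit that holds the catalytic head, averaged 5493 ± 988 in KO monocytes and 2038 ± 933 in KO microglia (log2 fold 1.52, limma adjusted p 0.0201). Atp5k, the small membrane subunit e, averaged 4439 ± 1304 in KO monocytes and 2095 ± 287 in KO microglia (log2 fold 1.05, limma adjusted p 0.0483). With the animal as a block, Cox5a (limma adjusted p 0.0556) and Atp5k (0.0518) were not called.

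In control mice limma called none of the 78 nuclear members in either direction, where 3.46% of tested genes were called higher. At an unadjusted p under 0.05 there were 5, of which 3 had positive folds, beside 2426 of the 12432 tested genes. edgeR called none, where it called 3.84% of tested genes in either direction. DESeq2 called 1, Ndufa9, an accessory subunit of complex I, lower, where it called 6.93% of tested genes lower. limma also called Ndufa9 lower after scaling to the same total (adjusted p 0.0492) and with the mitochondrial mRNAs left out of that total (adjusted p 0.0306). Of the 78, 50 had positive folds, 5 were above in every library, as were 9.6% of tested genes, and the median log2 fold was 0.12, against -0.24 for all tested genes. That median turned to -0.06 after scaling to the same total and to -0.21 with the mitochondrial mRNAs left out of it, while the median of all tested genes moved to -0.40 and -0.54. It was 0.03 without control microglia 2 and 0.05 without control microglia 1.

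Ndufa9 had the smallest p of the nuclear members in control mice. It averaged 1362 ± 502 normalized counts in control monocytes and 3234 ± 484 in control microglia, with no overlap and a log2 fold of -1.32 (SE 0.37, limma adjusted p 0.0553). In KO mice it averaged 2092 ± 320.3 in monocytes and 1896 ± 543 in microglia, with overlap and a log2 fold of 0.18, which turned to -0.077 after scaling to the same total.

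**Figure D4:**
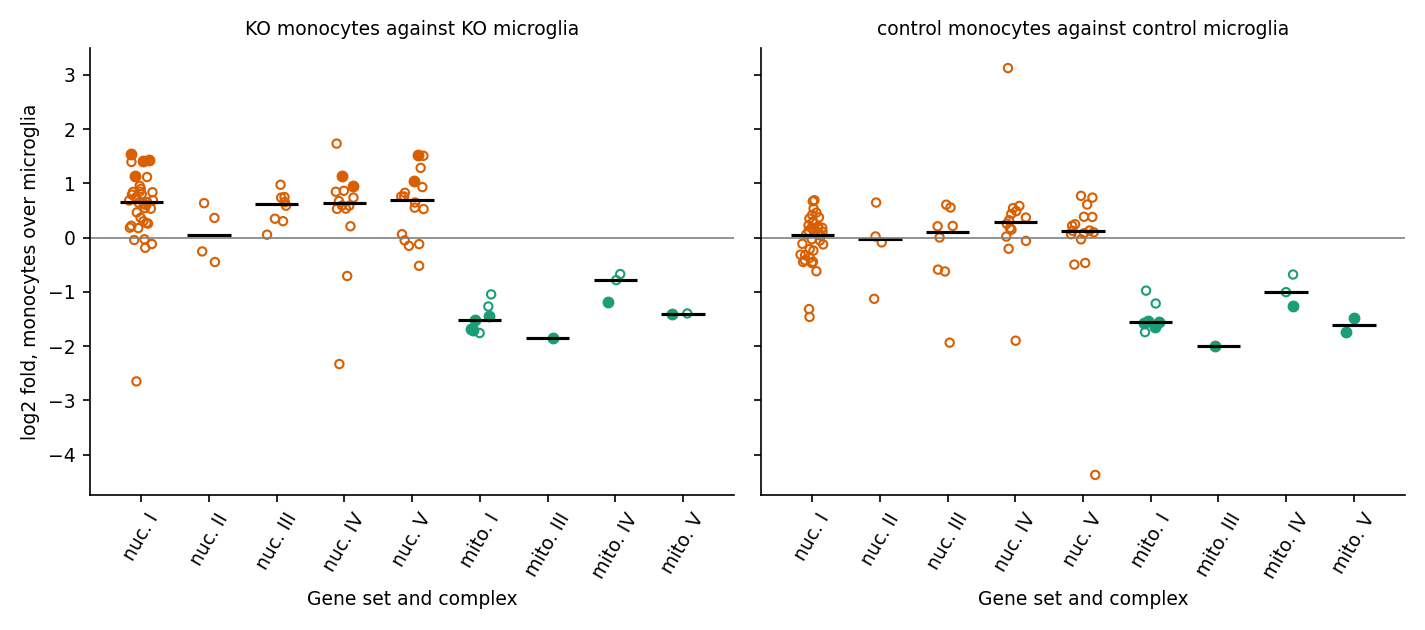
Log2 fold (monocytes over microglia) of each tested member by gene set and complex, in KO mice and in control mice (n = 3 per group). Points are genes, filled where the adjusted p is under 0.05, and lines are medians; nuclear medians run from 0.06 to 0.70 by complex in KO mice and from -0.03 to 0.29 in control mice, whereas mitochondrial medians lie at or below -0.78.

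By complex, the nuclear medians in KO mice were 0.65 for the 36 genes of complex I, 0.06 for the 4 of complex II, 0.62 for the 8 of complex III, 0.63 for the 14 of complex IV and 0.70 for the 16 of complex V. In control mice they were 0.05, -0.03, 0.11, 0.29 and 0.13 for complexes I to V. Every complex with a mitochondrial share thus had a positive nuclear median beside a negative mitochondrial one in both genotypes, as deposited.

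Complex II oxidizes succinate and also belongs to the citric acid cycle. Sdhb, its iron-sulfur subunit, averaged 10827 ± 972 normalized counts in KO monocytes and 6954 ± 430 in KO microglia without overlap (log2 fold 0.64, limma adjusted p 0.259), and 10587 ± 1539 in control monocytes and 7177 ± 2883 in control microglia with overlap (log2 fold 0.65, limma adjusted p 0.249). Sdha, the flavoprotein, averaged 1658 ± 470.1 in KO monocytes and 2058 ± 874 in KO microglia, and was at 2544, 68.0 and 1807 in control monocytes against 1982, 2416 and 689 in control microglia. The membrane anchors Sdhc and Sdhd had folds within 1 SE of 0 in both genotypes. None of the 4 was called.

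Several subunits of complex IV exist as tissue isoforms. The common Cox6a1 averaged 4711 ± 872 normalized counts in KO monocytes and 2591 ± 473 in KO microglia (log2 fold 0.86, limma adjusted p 0.0634), and 3902 ± 350 in control monocytes and 3530 ± 426 in control microglia. Its muscle form Cox6a2 was at 52.9, 420.4 and 91.5 in KO monocytes, against 528, 857 and 588 in KO microglia, and at 211, 502.5 and 66.5 in control monocytes, against 579, 963 and 667 in control microglia. Monocytes lay below microglia in every library of each genotype, but with log2 folds of -2.33 and -1.90 (SE 0.86 each) Cox6a2 was not called (limma adjusted p 0.147 and 0.25).

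Cox4i1, the regulatory subunit, averaged 10265 ± 1504 in KO monocytes and 6775 ± 356 in KO microglia, and 8575 ± 1576 in control monocytes and 8440 ± 1429 in control microglia. Cox8a averaged 4116 ± 165 in KO monocytes and 2466 ± 85.1 in KO microglia, and 4714 ± 1898 in control monocytes and 3076 ± 135 in control microglia, above in every library of both genotypes without a call. Cox7a2 had log2 folds of 0.54 and 0.32, and its relative Cox7a2l, which helps to join complexes III and IV, had -0.71 and -0.20. Ndufa4, now known as a complex IV subunit but counted here with complex I by its symbol, had 0.18 and -0.42. The muscle form Cox7a1 (0 to 316 over all libraries) and the testis form Cox6b2 (0 to 235) were low, and each was at 0 in some libraries. Cox4i2, Cox8b, Cox8c and Ndufa4l2 were not analysed here.

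Of the nuclear members with the highest mean in their complex, Uqcrb of complex III averaged 7524 ± 1242 normalized counts in KO monocytes and 3914 ± 1142 in KO microglia (log2 fold 0.97, limma adjusted p 0.135). Atp5j, coupling factor 6 of ATP synthase, averaged 14223 ± 299 in KO monocytes and 10153 ± 3076 in KO microglia (log2 fold 0.53). In control mice their log2 folds were 0.21 and 0.10. Both KO pairs were free of overlap, and neither gene was called.

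The genotypes were then set against each other within a population. In KO against control monocytes, limma called none of the 91 members, where 0.0402% of tested genes (5 of 12432) were called. At an unadjusted p under 0.05 there were 3, all nuclear and with positive folds, beside 756 of the 12432 tested genes. edgeR called none, and DESeq2 called Ndufb10 higher, among 2.73% of tested genes called in either direction. The 78 nuclear members had a median log2 fold of 0.24, with 55 positive, and the 13 mitochondrial ones -0.01, with 5 positive; all tested genes had 0.05.

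Ndufb10, an accessory subunit of complex I, had 5803, 4576 and 4153 normalized counts in KO monocytes, against 2357, 2346 and 2188 in control monocytes, a log2 fold of 1.06 (SE 0.32, limma adjusted p 0.565). Ndufb8 (log2 fold 0.56) and Ndufa3 (0.50) were, like Ndufb10, above in every library, as were 580 of the 12432 tested genes. Mitochondrial folds between the genotypes ran from -0.31 to 0.23. Summed neutrophil markers were 40348 to 75167 in KO monocytes and 18363 to 42544 in control monocytes, and the part of neutrophils was not tested.

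Microglia are the TdT-negative cells and had at most 7.88 normalized counts of Cxcr4 in either genotype, so a loss of Cxcr4 in them was not shown. In KO against control microglia, limma again called none of the 91, where 0.0322% of tested genes (4 of 12432) were called. At an unadjusted p under 0.05 there were 8, all nuclear and with negative folds, beside 439 of the 12432 tested genes. edgeR called none, and DESeq2 called Ndufa3 lower, among 0.877% of tested genes. The nuclear median was -0.29, with 63 of 78 negative, and the mitochondrial median -0.10, with 10 of 13 negative; all tested genes had 0.05. Ndufa3 averaged 1292 ± 143 normalized counts in KO microglia and 2448 ± 194 in control microglia (log2 fold -0.92, limma adjusted p 0.85). Cox6b1 averaged 4239 ± 207 in KO microglia and 6404 ± 919 in control microglia (log2 fold -0.59), and Uqcr10, a small subunit of complex III, 2552 ± 483 and 3835 ± 56.0 in the same order of groups (log2 fold -0.60). These 3 were below in every library, as were 525 of the 12432 tested genes, while Ndufb8 (log2 fold -0.53) overlapped. Summed astrocyte markers were 2616 to 2683 in KO microglia and 1467 to 1779 in control microglia without overlap, and the part of astrocytes was not tested.

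The difference between the genotypes' population folds was tested directly. limma called 0 of the 91 members and 0% of the 12432 tested genes for this genotype-by-population term. At an unadjusted p under 0.05 there were 9 members, all nuclear and positive, beside 590 of the 12432 tested genes. edgeR called none, and DESeq2 called Ndufa3 and Ndufb8. The smallest p was that of Ndufa3 (difference of log2 folds 1.42, SE 0.35, limma adjusted p 0.621), then Ndufb8 (1.09, SE 0.30), Ndufa9 (1.49, SE 0.52) and Cox6b1 (0.78, SE 0.30). The mitochondrial members had a median difference of 0.02, from -0.12 to 0.34. By limma and edgeR no nuclear fold was thus shown to differ between KO and control mice, and by DESeq2 those of Ndufa3 and Ndufb8 alone did, where it called 2.22% of tested genes.

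In the GFP table, made from total RNA with another kit, 67 of the 79 nuclear members could be tested. Those not tested for low values were Atp5g1, Atp5k, Atp5s, Cox6a2, Cox6b2, Cox7a1, Ndufa3, Ndufa5, Ndufa11, Ndufa13, Ndufs5 and Ndufs6; Cox7a1 was at 0 in all 4 GFP monocyte libraries and had 1.29 normalized counts in 1 microglial library. The summed share of reads was 0.246%, 0.335%, 0.262% and 0.246% in GFP monocytes, against 0.157%, 0.113%, 0.103% and 0.0736% in GFP microglia, so that the groups did not overlap. The ribosomal transcript Rn45s, which moves such shares, took 23.2% to 28.4% of reads in monocytes and 22.1% to 48.3% in microglia.

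limma called none of the 67 in GFP monocytes against GFP microglia, where 0.908% of the 7706 tested genes were called, and edgeR and DESeq2 called none. At an unadjusted p under 0.05 there were 3, beside 580 of the 7706 tested genes. Of the 67, 62 had positive log2 folds, beside 4836 of the 7706 tested genes. The median of the 67 was 1.58, against 0.51 for all tested genes. With 1 library left out the median was 0.77 without GFP microglia 4, 0.97 without GFP microglia 3, 2.36 without GFP microglia 2, 2.38 without GFP microglia 1 and 2.60 without GFP monocytes 3, and with a pseudocount of 10 it was 0.80. Uqcrh, the hinge protein of complex III, had 60.8, 98.5, 435 and 82.4 normalized counts in monocytes, against 43.9, 54.6, 0 and 0 in microglia, a log2 fold of 4.11 (SE 1.89, limma adjusted p 0.596). Cox5b had 73.3, 135, 172 and 38.8 in monocytes, against 28.4, 26.2, 0 and 0 in microglia. Cox4i1 (log2 fold 3.67) and Ndufb6 (3.68) likewise lay above in every library, and all 4 folds rest on microglial libraries at or near 0. Ndufb6 passed the filter on low values through the monocyte libraries alone, so that it had to differ.

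Astrocyte markers summed to 1.32 to 25.8 in GFP monocytes and 173 to 587 in GFP microglia, and neutrophil markers to 425 to 1956 and 892 to 1461 in the same order of groups; their part in the result was not tested. The zeros came with few detected genes. GFP monocytes 3, GFP microglia 3 and GFP microglia 4 held a read of 21, 26 and 13 of the 79 members, against 73 to 79 in the other 5 libraries. Sdhb, Sdhc and Sdhd were at 0 in all 3 of these libraries, while Sdha had 377 normalized counts in GFP monocytes 3. Without the 3 libraries the median fold was 0.58, against -0.05 for all tested genes, and limma called 4 members higher, Cox8a (log2 fold 1.57, adjusted p 0.0134), Cox5a (1.58), Atp5l (1.35) and Sdhd (1.70). These were 4 of 64 tested members (6.25%), where 1058 of 7264 tested genes (14.6%) were called. In the 5 libraries, Cox8a had 140.3, 124 and 89.7 normalized counts in GFP monocytes, against 33.6 and 43.9 in GFP microglia, and Atp5a1, the catalytic-head subunit alpha of ATP synthase, had 306, 353 and 315 against 170.5 and 219.9. With 2 microglial libraries left, these values have little replicate support.

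**Figure D5:**
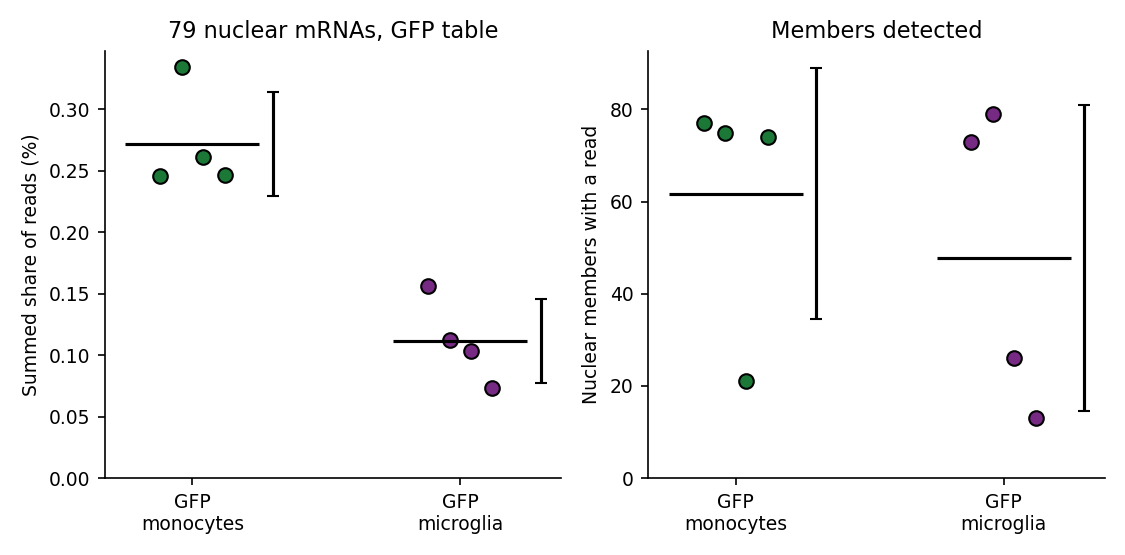
Summed share of reads of the 79 nuclear members (percent) and number of members with a read in the 8 GFP libraries. Points are libraries, lines are means and bars are SD (n = 4 per group). Shares reach at least 0.246% in monocytes and at most 0.157% in microglia, and 3 libraries hold reads of 13 to 26 members.

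Other genes of the pathway were taken from lists, to be read against the 3.85% and 2.98% of tested genes called higher and lower in KO monocytes and the 3.46% and 3.06% in control monocytes. Of 21 genes for copying and transcribing mitochondrial DNA and processing its RNA, 4 had positive folds in KO mice (median log2 fold -1.10) and 3 in control mice (median -0.92), beside -0.25 and -0.24 for all tested genes. The 1 call among them was Tbrg4, a FASTK-family regulator of mitochondrial RNA, which averaged 44.4 ± 9.31 normalized counts in control monocytes and 277 ± 64.8 in control microglia (log2 fold -2.61, limma adjusted p 0.0431). Of 78 genes of the mitochondrial ribosome, 52 had positive folds in KO mice (median log2 fold 0.37), beside 5356 of the 12432 tested genes. Mrps21 and Mrpl33 were called higher (log2 folds 1.09 and 0.94). In control mice 30 of 78 were positive (median -0.11), beside 5397 of the 12432 tested genes, and limma called none.

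Of 23 tested assembly factors for complexes III and IV, limma called 2 higher in KO monocytes. Cox17, which carries copper to complex IV, averaged 4800.5 ± 288 normalized counts in KO monocytes and 1772 ± 113 in KO microglia (log2 fold 1.44, limma adjusted p 0.00581), and Cox14 averaged 3355 ± 483 and 1196 ± 169 in the same order (log2 fold 1.49). In control mice Cox17 had a log2 fold of 0.84 (limma adjusted p 0.0827) and none of the list was called. Of 18 electron carriers and genes of coenzyme Q synthesis, Coq10b was called higher in control monocytes, with 5249 ± 3141 normalized counts against 1504 ± 531 in control microglia (log2 fold 1.66, limma adjusted p 0.0434). Coq6 was at 0 in all 3 KO monocyte libraries and averaged 106 ± 29.5 in KO microglia (log2 fold -6.71, SE 1.76, limma adjusted p 0.0414). With 3 reads in the whole monocyte group taken as a floor, the microglial mean was 167 times that floor. No gene of this list was called lower by limma in control mice. In neither genotype did limma call a gene among the 14 assembly factors of complex I, the 13 citric acid cycle genes or the 10 tested transcriptional regulators of respiration; their median log2 folds were -0.33, 0.13 and -1.87 in KO mice and 0.47, -0.29 and 0.13 in control mice. Mdh2, the mitochondrial malate dehydrogenase, had the smallest p of the cycle genes in KO mice (log2 fold 1.02, limma adjusted p 0.119). limma called none of the listed genes in GFP mice, between genotypes or for the genotype-by-population term.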

How the data were processed

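The deposited tables hold normalized counts per gene (a signal). The submitters' processing notes name DESeq2 for both, CASAVA 1.82 for the GFP table, and bcl2fastq 2.20 and kallisto for the Cre table. Kits were Nugen Ovation SoLo (total RNA) for the GFP table and SMART-Seq2 (polyA RNA) for the Cre table, per the labels' protocols. The sources used here give no build, annotation or strand setting. All values above 0 (100% in both tables) lay within 0.01 of a whole multiple of 1 read, from which whole reads were recovered. Altered gene names, 681 of them in the Cre table, were restored.

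Genes that reached 10 in 4 or more GFP, or 3 or more Cre, libraries (7706 and 12432) were tested on log2(value + 1) with limma 3.58.1 (intensity trend, two-sided, R 4.3.3) and Benjamini-Hochberg adjustment at 0.05 over all of them. The Cre fit had 4 groups that share 1 spread; the tables were never joined. p-values measure the spread between libraries. edgeR 4.0.16 and DESeq2 1.42.0 on recovered reads, other scalings, no filter, a pseudocount of 10 and leaving libraries out were alternatives. Fits were tested on simulated data. Labels tie libraries to animals, so the animal was a block in an alternative; the fitted correlation within animals was -0.07 in the Cre table.

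Genes named were the 13 mitochondrial genes, Sdha to Sdhd, called members (at most 10 a direction) or the 4 with the smallest p, the member with the largest mean per complex, isoforms, and per list the called members or the smallest p. The values of 1 gene that this rule named are not reported here. Members and lists were chosen with earlier results of these data known. Levels per kb use the GENCODE M21 transcript with the longest coding sequence. Nuclear copies of mitochondrial DNA and near-identical genes may share reads.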

Additional observations from a re-analysis of the deposited data

Results flagged for a closer look

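In the GFP monocytes, library 3 stood far from the other 3 in several values, each tested against the spread of the group of 4. It held a read of 21 nuclear members, where the other monocyte libraries held 74 to 77. Its value was the high one for Uqcrh (435 normalized counts), Ndufb6 (114 normalized counts) and Cox6a1 (562 normalized counts). Among 32 group values looked at, 4 stood out this way. Chance alone gives about 1 in 20 groups where values are independent. These 4 all come from 1 library of few detected genes, so they cannot be set against that rate. Uqcrh and Ndufb6 were also looked at because of their small p in these data.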

How the results depend on the processing

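Counts of called members that moved by over 1.5 times were as follows. In control mice 8 of 91 became 14 after scaling to the same total, where 6.39% of tested genes were called. They became 14 without mitochondrial mRNAs in that total (6.83%) and 13 with DESeq2 (13%). With 1 library left out they became 2 to 11 (4.7% to 5.67%). In KO mice 15 became 31 with DESeq2 (21 higher, 10 lower), where 12.6% of tested genes were called. With 1 library left out they became 4 to 14 (3.93% to 5.02%). DESeq2 called 1 member in KO against control monocytes (2.73% of tested genes), 1 in KO against control microglia (0.877%) and 2 for the genotype-by-population term (2.22%), in place of 0. Without the 3 GFP libraries of few detected genes, 4 GFP members were called in place of 0, where 14.6% of tested genes were called. The nuclear median in KO mice (0.64) was 0.39 after scaling to the same total, 0.56 after upper-quartile scaling and 0.26 without mitochondrial mRNAs in the total. That in control mice (0.12) was -0.21 under the last. Mitochondrial medians stayed between -1.93 and -1.26 in control mice and between -1.66 and -1.03 in KO mice with 1 library left out. With the animal as a replicate block, 6 members were called in control mice, where 5.95% of tested genes were called. In KO mice 12 were called (6 higher, 6 lower), where 6.4% of tested genes were, and 0 in each of the other 4 comparisons. The values of single members covered those called (or, in a comparison with no call, the 4 lowest in p) and the 13 mitochondrial genes and Ndufa9 in both Cre population comparisons. Of these, 602 kept direction and call, 111 lost the call, 43 gained one and 3 changed direction. The 3 were all of Ndufa9 in KO mice, never called, at -0.077 after scaling to the same total, -0.21 without mitochondrial mRNAs in that total and -0.088 without KO microglia 3 (-0.088 to 0.33 with 1 library left out). Causes were not tested. The value of 1 read reached 2.58 normalized counts in the GFP table and 2.19 in the Cre table.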
